A study of Mus musculus with 3 samples.

Results

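Zfp genes, the mouse genes whose symbols mark them as zinc finger protein genes, were described by their RNA in the chromatin fraction of macrophages. The 104 genes described here have a symbol of Zfp followed by a number and at least 1 protein-coding transcript, and were selected on a mean of at least 5 TPM (a level scaled by transcript length and library total) over the 3 libraries. They are 104 of 390 Zfp genes with a protein-coding transcript, after leaving out Zfp36, Zfp36l1, Zfp36l2 and Zfp36l3, which bind RNA through another kind of finger. Because the mean TPM chose these genes, their levels are given as a description without a test.

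The cells were macrophages grown from bone marrow of C57BL/6J mice, a wild-type inbred strain. All 3 libraries belong to 1 group: cells given 100 ng/ml Lipid A (the Toll-like receptor 4 ligand of bacterial lipopolysaccharide) for 12 h, kept without it for 12 h, and given 100 ng/ml again for 60 min. There was no untreated arm, so no value is a response to Lipid A. Replicates 1, 2 and 3 were made from 1000, 250 and 500 ng of RNA and held 12602702, 17222239 and 17042691 gene counts. The labels number them as biological replicates under 1 donor entry and name no animal or culture, and age and sex were not recorded. Each p-value below therefore reflects variation among these libraries alone, which may be technical.

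A C2H2 zinc finger is a short fold in which a pair of cysteines and a pair of histidines hold a zinc ion, and arrays of such fingers read DNA sequence. Many of the genes also encode a KRAB domain, which recruits Trim28 and, through it, the histone methyltransferase Setdb1 and HP1 proteins to silence retroelements and imprinted loci. Others carry a SCAN or BTB domain for pairing, work at promoters, or bind RNA and ribosomes. RNA of the chromatin fraction includes transcripts that are still being made, so that a level there reflects transcription together with retention on chromatin.

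To show what the family shares and where reads of its members can be confused, the DNA that encodes the first finger lying within 1 exon is printed for 5 members: the gene with the highest level, Zfp263, the highest with a KRAB-like pattern in the RSEM layout, Zfp445, and the 3 neighbours Zfp991, Zfp992 and Zfp993. Capitals mark the codons of the 2 cysteines and 2 histidines, and each stretch ends 7 codons after the second histidine. All are from the GRCm38 coding sequence of GENCODE M21, in the last exon of the transcript used.
Zfp263: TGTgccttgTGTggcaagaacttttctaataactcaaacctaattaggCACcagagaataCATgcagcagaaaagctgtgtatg
Zfp445: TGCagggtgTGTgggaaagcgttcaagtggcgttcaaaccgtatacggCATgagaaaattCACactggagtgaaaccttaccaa
Zfp991: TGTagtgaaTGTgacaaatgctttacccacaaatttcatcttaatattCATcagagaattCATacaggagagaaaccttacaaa
Zfp992: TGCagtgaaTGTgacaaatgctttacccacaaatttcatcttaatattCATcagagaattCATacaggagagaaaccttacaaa
Zfp993: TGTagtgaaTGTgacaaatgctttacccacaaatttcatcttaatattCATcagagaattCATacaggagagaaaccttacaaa
They lie at chr16:3748960-3749043 (+, Zfp263), chr9:122853378-122853461 (-, Zfp445), chr4:147178891-147178974 (+, Zfp991), chr4:146466547-146466630 (+, Zfp992) and chr4:146657944-146658027 (+, Zfp993). The stretches of Zfp991 and Zfp993 were identical over all 84 bases, and that of Zfp992 matched either at 83. Zfp263 and Zfp445 matched each other at 42 of the 84 bases. A read inside such a stretch can be assigned between Zfp991 and Zfp993 only by what lies beside it.

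Zfp263, which encodes a DNA-binding protein with a SCAN domain and 9 finger matches, had by far the most RNA (ENSMUSG00000022529.11, mm10 chromosome 16, 3744093 to 3750790, + strand). It stood at 329, 419.9 and 542 TPM in replicates 1, 2 and 3, a mean of 430.2 ± 107 (SD, n = 3). That is 4.42 times the next member in the RSEM layout, while in the kallisto layout, the other deposited quantification, it stood at 327 TPM, 2.17 times the next member, Zfp991. By RSEM-layout TPM Zfp263 ranked 68 by mean TPM among all 21901 genes with a protein-coding transcript. It alone held 16.1 to 21.8% of the summed TPM of the 104 genes. Even its lowest library was above every library of every other member.

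Zfp207 (BuGZ, a spindle assembly protein; ENSMUSG00000017421.18, chromosome 11, 80383279 to 80405733, + strand) had 76.5, 106 and 109.8 TPM. Zfp638, a nuclear matrix protein that takes part in silencing of unintegrated viral DNA, had 56.7, 99.5 and 91.0 TPM (ENSMUSG00000030016.14, chromosome 6, 83867109 to 83989550, + strand). Zfp445, which guards genomic imprints, had 59.6, 107 and 75.6 TPM (ENSMUSG00000047036.8, chromosome 9, 122844529 to 122866006, - strand). It was the highest member with a KRAB-like pattern in the RSEM layout, whereas in the kallisto layout Zfp991 stood at 151 TPM and Zfp445 at 63.5 TPM. Zfp800 (77.6 ± 13.5 TPM), Zfp62 (68.2 ± 12.2 TPM) and Zfp384 (63.0 ± 5.75 TPM) came next. Each of these genes overlapped its neighbour in the order, while Zfp384 lay below Zfp207 in every library. An antisense gene, 6530409C15Rik, at 39.3 TPM shares 119 exonic bases with Zfp800, and whether counting used strand is not given in the sources used here.

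Zfp131 (59.5 ± 13.1 TPM), Zfp407 (57.2 ± 10.5 TPM), Zfp655 (44.8 ± 10.5 TPM), Zfp871 (44.7 ± 14.6 TPM), Zfp513 (40.2 ± 1.80 TPM), Zfp991 (38.1 ± 6.09 TPM), Zfp950 (34.1 ± 8.49 TPM) and Zfp516 (33.9 ± 10.6 TPM) completed the 15 highest. Over all 104 genes, 9 had a mean of at least 50 TPM, 19 of 20 to 50, 32 of 10 to 20 and 44 under 10. The median of the members' mean levels was 11.5 TPM, beside 17.9 TPM over the 6360 genes with a protein-coding transcript and at least 5 TPM. Of the 390 Zfp genes 26.7% reached 5 TPM, beside 29.0% of all 21901 genes with a protein-coding transcript, 13 of 41 Zbtb genes (31.7%), whose products pair fingers with a BTB domain, and 5 of 30 Zkscan and Zscan genes (16.7%).

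**Figure D1:**
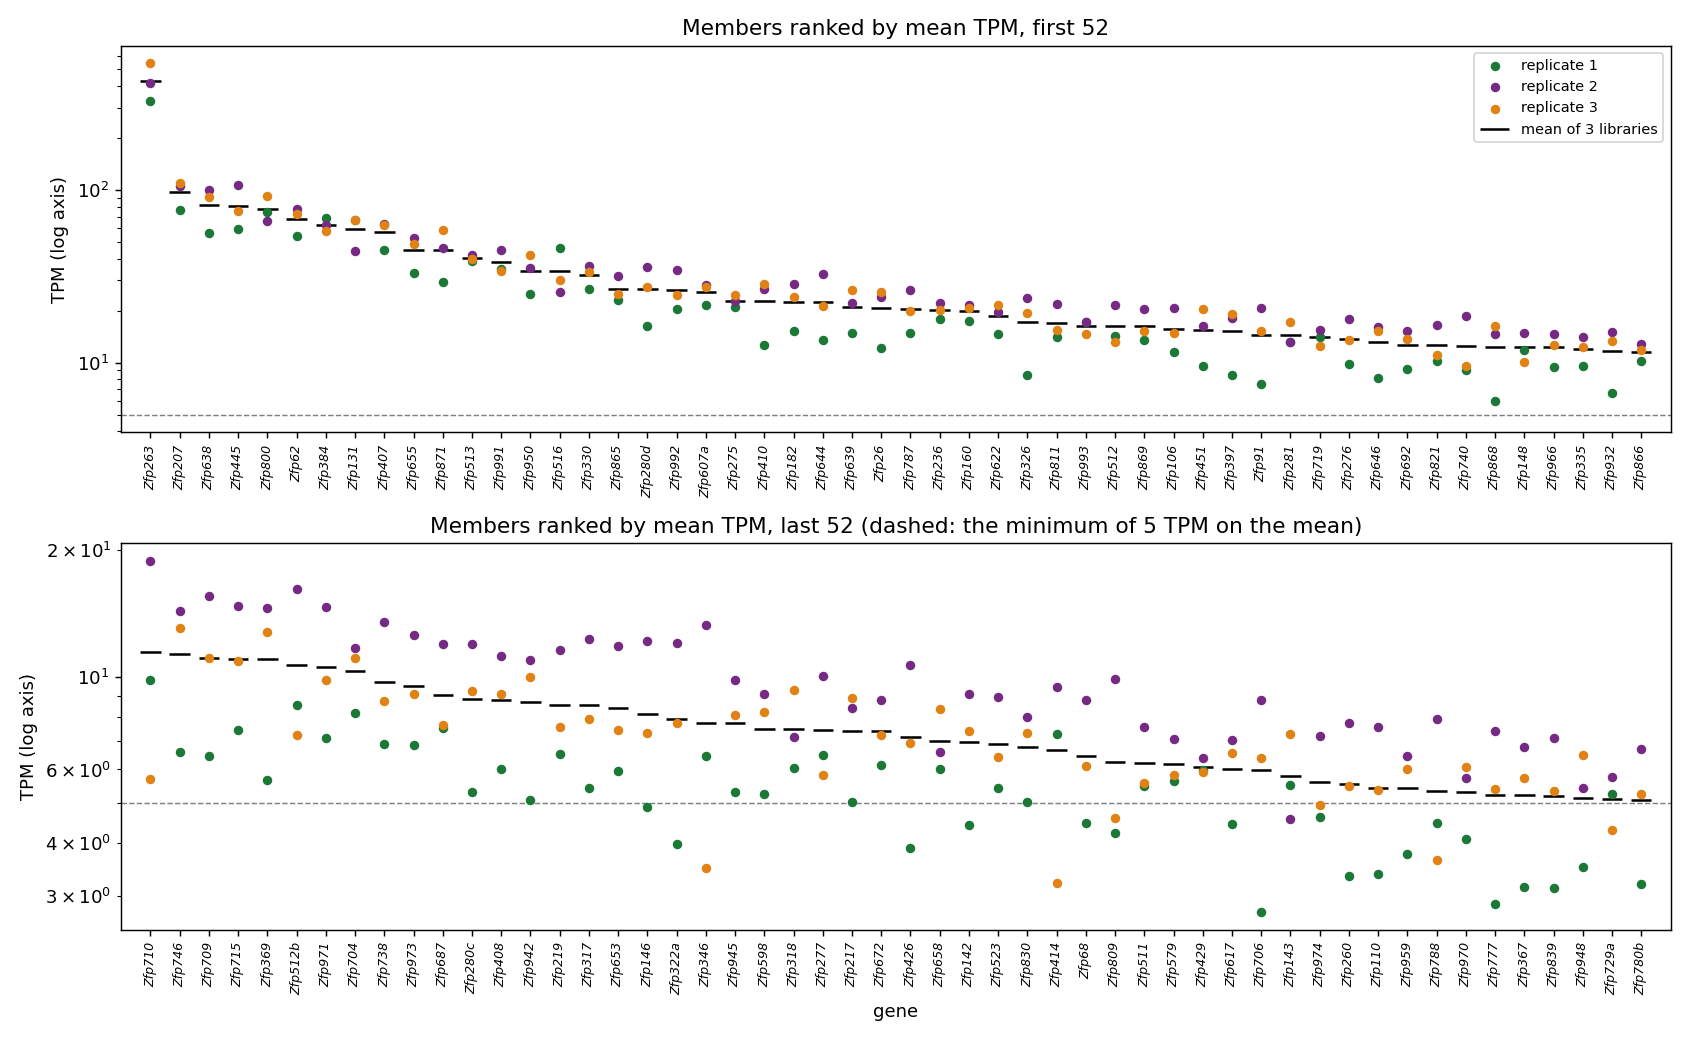
TPM on a log axis for the 104 members, ranked by mean; points are the 3 libraries and bars their mean, and the dashed line is the minimum of 5 TPM on the mean. Zfp263 stands apart at 430.2 TPM, and most members were lowest in replicate 1.

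The members nearest the minimum on the inside were Zfp780b (5.06 TPM), Zfp729a (5.11), Zfp948 (5.14) and Zfp839 (5.20), and those just outside were Zfp119a (4.92), Zfp799 (4.88), Zfp385a (4.81) and Zfp28 (4.76). Their libraries overlap, so the boundary separates no distinct classes. The minimum was met in each single library by 81 of the 104 members. The lowest expected count of any member in any library was 36, while 45 of the 390 genes had at most 3 counts in each library.

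Most members moved with the library. By TPM 86 of 104 (82.7%) were lowest in replicate 1 and 80 (76.9%) highest in replicate 2, beside 64.9 and 73.2% of the 6360 genes of at least 5 TPM. After scaling counts by edgeR's TMM factors, only 47 (45.2%) were lowest in replicate 1, beside 28.3%, and 57 (54.8%) were highest in replicate 3, beside 35.2%. The median member was higher in replicate 3 than in replicate 1 by 0.23 (log2 of TMM-scaled counts), beside -0.01 for all 6318 genes compared. Their share of all counts was 0.593 ± 0.0181% (SD, n = 3). Which of replicates 2 and 3 was highest for most members thus depends on the scaling. For replicate 2 over replicate 1 the median member's log2 difference was 0.75 by TPM but only 0.04 after TMM scaling. The genes of at least 5 TPM had 0.66 and -0.05. For replicate 3 over replicate 1 it was 0.46 by TPM, beside 0.24 over those genes. All 11 stromal marker genes checked, such as Col1a1 (0, 224 and 0.44 TPM), were highest in replicate 2. They summed to 0.07, 660 and 2.34 TPM, with 9 of 11 at 0 in replicate 1 and 4 in replicate 3, and the 12 macrophage markers summed to 1542, 1700.3 and 1115 TPM. The part of this in the levels was not tested, and in bulk RNA fewer cells of a type and less RNA per cell cannot be told apart. At most 3 counts per library were found for 3 of 4 T cell, 3 of 3 B cell and 4 of 4 neutrophil markers, the exception being Cd4 at 2.83 TPM.

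By RSEM-layout TPM the steadiest members were Zfp429 and Zfp513, with coefficients of variation of 4.20 and 4.49%. In the kallisto layout Zfp429 stood at 9.25, 18.4 and 12.9 TPM and Zfp513 at 47.4, 32.3 and 35.9 TPM. After TMM scaling of the counts, Zfp429 and Zfp513 were highest in replicate 1 and lowest in replicate 2. Their steadiness thus depends on the quantification and scaling. By RSEM-layout TPM the most variable members were Zfp346, which binds double-stranded RNA, at 6.47, 13.25 and 3.49 TPM (64.7%), and Zfp710 at 9.82, 18.9 and 5.70 TPM (58.8%). Zfp706 (51.1%), Zfp809 (50.8%) and Zfp322a (50.8%) followed. Zfp346 and Zfp710 were highest in replicate 2 and lowest in replicate 3. The median coefficient of variation of the members was 28.8%, beside 29.3% over the 6360 genes.

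By their known roles, the 7 genes listed as silencers of retroelements and imprints gave 4 members. Zfp445 led at 80.9 TPM, and Zfp932, which binds endogenous retroviruses, had 6.66, 15.1 and 13.4 TPM. Zfp809, which silences murine leukaemia virus through its primer binding site, had 4.23, 9.89 and 4.59 TPM. Zfp429 had 5.98, 6.39 and 5.92 TPM. Zfp57, the imprint guard of embryonic cells, was at 0.31 TPM, and Zfp568 and Zfp708 at 2.91 and 0.223 TPM.

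Of 10 factors listed as acting at promoters, 9 were members. Zfp143, which works at many promoters, stood at 5.50, 4.58 and 7.31 TPM, and the GC-rich binding factors Zfp148 and Zfp281 at 12.3 and 14.5 TPM. Zfp410, known as an activator of Chd4, stood at 12.7, 26.7 and 28.6 TPM, and Chd4 itself at 116, 149 and 152 TPM. Zfp335 stood at 12.0 TPM, Zfp367 at 5.22 TPM, Zfp131 at 59.5 TPM and Zfp384 at 63.0 TPM. Zfp64 was below the minimum at 2.65 TPM.

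Of 19 genes listed with chromatin or corepressor partners 8 were members. Zfp644, a partner of the H3K9 methyltransferases Ehmt1 and Ehmt2, was at 13.5, 32.8 and 21.3 TPM, and Zfp217, a corepressor partner, at 7.42 TPM. Zfp516 had 33.9, Zfp687 had 9.05, Zfp451, which ligates SUMO, had 15.4, Zfp746 (PARIS) had 11.3 and Zfp318 had 7.50 TPM, beside the 82.4 TPM of Zfp638. Zfp592, Zfp518a, Zfp292, Zfp609 and Zfp652 lay between 3.07 and 4.51 TPM, and Zfp423, Zfp462, Zfp521, Zfp608, Zfp518b and Zfp827 at or under 1.30 TPM. The 1.30 TPM of Zfp521 came from replicate 2 alone (0, 3.90 and 0 TPM), the library with the stromal marker RNA. The source of the Zfp521 RNA was not tested.

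Of 13 genes listed for RNA, ribosomes or ubiquitin 11 were members. Zfp598, the ligase that marks collided ribosomes, was at 7.51 TPM (5.23, 9.10 and 8.21), and Zfp622, a factor of large ribosomal subunit maturation, at 18.6 TPM. Zfp106 and Zfp326, which bind RNA and couple splicing to transcription respectively, were at 15.7 and 17.2 TPM. Zfp91, a ubiquitin ligase of noncanonical NF-kB signalling, had 7.56, 20.8 and 15.3 TPM. Zfp330 had 32.2, Zfp346 7.74, Zfp277 7.44, Zfp830, a splicing protein, 6.78 and Zfp706 5.98 TPM, while Zfp385a and Zfp593 were below the minimum at 4.81 and 0.907 TPM. Of 4 genes listed for links to myeloid cells, Zfp710 was a member, and Zfp703, Zfp467 and Zfp366 had 4.69, 3.28 and 0.00667 TPM. Of the listed genes below the minimum, Zfp467 (13.4 TPM), Zfp703 (9.30), Zfp64 (6.52) and Zfp568 (5.84) were above it in the kallisto layout.

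RNA of the cofactors that KRAB proteins use was found in the chromatin fraction. Of 24 genes listed, 21 had at least 5 TPM, beside 29.0% of all 21901 genes with a protein-coding transcript. The median of the 24 was 15.7 TPM. Trim28 was at 8.18, 21.2 and 11.9 TPM and Setdb1 at 6.85, 17.2 and 9.00 TPM. Cbx3 (HP1 gamma), Uhrf1 and Suv39h1 were below 5 TPM, at 4.40, 0.957 and 2.35, although Cbx3 was at 20.1 TPM in the kallisto layout. Cbx3 was highest in replicate 2 (10.1 TPM) and was the only cofactor whose slope on the amount of starting RNA passed the threshold (log2 slope -1.41, edgeR adjusted p = 0.0260).

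A search of the longest translated coding sequence found a KRAB-like pattern in 224 of the 390 genes. Of those 39 (17.4%) were members, against 65 of the 166 without it (39.2%). Among the members the median level was 10.5 TPM with the pattern and 12.6 TPM without, and 8 of 39 (20.5%) against 20 of 65 (30.8%) reached 20 TPM. The difference of medians was -0.26 on the log2 scale with RSEM-layout TPM and 0.12 with kallisto-layout TPM, so its direction depends on the quantification. Over all 390 genes, counting those under the minimum, the median mean TPM was 0.987 with the pattern and 2.77 without. Members with the pattern had a median of 12 finger matches and the others 7, and a median of 80.5% of their TPM on protein-coding transcripts against 63.9%. Transcripts that keep an intron were annotated for 46.2% of the members with the pattern and 73.8% of those without. Where annotated, they held a median of 38.7% of the TPM with the pattern and 36.8% without. The levels chose the members, so these differences carry no test. A protein with an unusual domain or a shorter coding sequence in the longest model could be missed. Zfp263 had no match and is counted without the pattern, but lacking the pattern does not show that a protein lacks a KRAB domain. SCAN-like patterns were found in 5 members, Zfp263, Zfp369, Zfp397, Zfp445 and Zfp110.

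**Figure D2:**
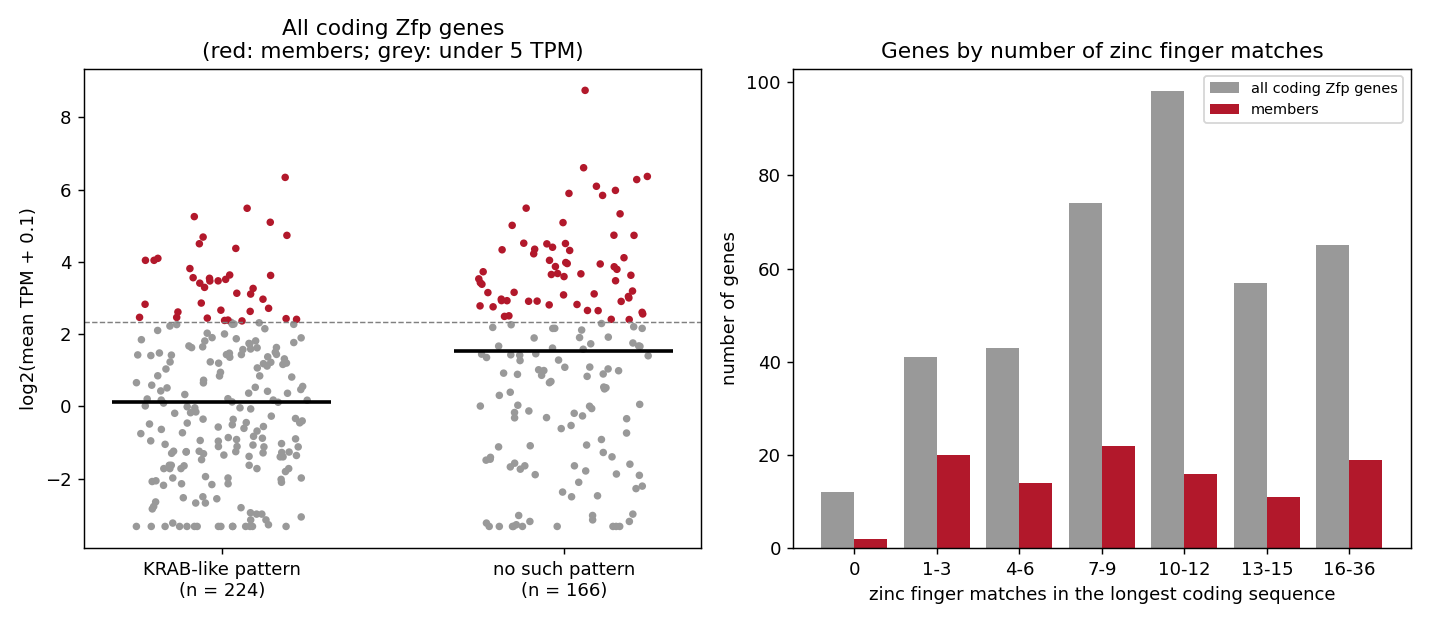
Left, log2 of mean TPM plus 0.1 for all 390 Zfp genes with and without a KRAB-like pattern; bars are medians, red points are members, and the dashed line is 5 TPM. Right, the number of genes by their zinc finger matches. 20 of 41 genes with 1 to 3 matches were members, against 16 of 98 with 10 to 12.

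The number of fingers ranged widely. Zfp142 had 36 matches, Zfp236 30, Zfp646 and Zfp729a 27 each and Zfp62 25. Zfp330 and Zfp839 had none, so these 2 carry the name without a finger of this form. Genes without a match were members in 2 of 12 cases (16.7%). Genes with 1 to 3 matches were members in 48.8% of cases, those with 4 to 6 in 32.6%, 7 to 9 in 29.7%, 10 to 12 in 16.3%, 13 to 15 in 19.3% and 16 or more in 29.2%. The KRAB-like pattern was in 7 of the 41 genes with 1 to 3 matches and 71 of the 98 with 10 to 12.

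Their genes are spread over the genome. Chromosome 7 held 17 members of 91 Zfp genes, chromosome 17 held 11 of 45 and chromosome 4 only 3 of 30. With neighbours at most 500 kb apart grouped, 37 members lay in 16 groups. Groups of 3 were Zfp992, Zfp993 and Zfp991 on chromosome 4 (146449023 to 147180579), Zfp429, Zfp729a and Zfp738 on chromosome 13 (67387905 to 67687071), Zfp868, Zfp869 and Zfp866 on chromosome 8 (69610857 to 69791178), and Zfp607a, Zfp974 and Zfp780b as well as Zfp715, Zfp658 and Zfp719 on chromosome 7. The chromosome 4 group spanned 16.4 to 38.1 TPM. All 15 members of these groups except Zfp974 held a KRAB-like pattern, and the chromosome 13 group covers 10 Zfp genes of which 3 were members.

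The 2 deposited quantifications place some members differently, and the cause was not tested. In the median, the TPM in the kallisto layout was 1.13 times that in the RSEM layout (1.17 over the 6360 genes), and 12 members (11.5%, beside 9.80%) exceeded 2. The largest ratios were those of Zfp809 (6.04), Zfp970 (5.48), Zfp369 (4.98), Zfp991 (3.96), Zfp780b (3.95), Zfp260 (2.95), Zfp738 (2.57) and Zfp429 (2.22). The smallest were those of Zfp971 (0.664), Zfp397 (0.694), Zfp830 (0.711), Zfp281 (0.753), Zfp263 (0.761), Zfp445 (0.785), Zfp276 (0.807) and Zfp973 (0.811). Spearman's rho between the 2 levels was 0.79 over the 104 genes, as a description across genes that share libraries. Zfp809 stood at 6.24 TPM in the RSEM layout and 37.7 TPM in the kallisto layout, of which a retained-intron transcript of 597 bases held 29.9 TPM. For Zfp991, 121 of 151 TPM in the kallisto layout sat on a transcript of 234 bases that was listed at 0 in the RSEM layout.

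The share of 31-base words that a member shares with any other gene was 3.89% in the median, over 10% in 31 members and over 50% in 6. Zfp966 (93.9%, partner Zfp968), Zfp993 (91.9%, Zfp991), Zfp973 (90.5%, Zfp965), Zfp991 (88.0%, Znf41-ps), Zfp971 (69.5%, Gm14288) and Zfp970 (67.9%, Gm14288) were those 6, so the level of any 1 of them is uncertain. The 12 members with a ratio over 2 shared a median of 16.3% of their words and the others 3.32%, while rho between the shared part and the absolute log ratio over all 104 was 0.12. Exons overlapped another gene in 43 members, on the opposite strand in 36 and on the same strand in 11. The RNA of Zfp335 shares 1107 of 4743 exonic bases with Pcif1 (16.1 TPM) on the opposite strand. In Zfp207, a nonsense-mediated decay model and a protein-coding model have the same 2898 bases, and each was given 14.2 TPM.

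**Figure D3:**
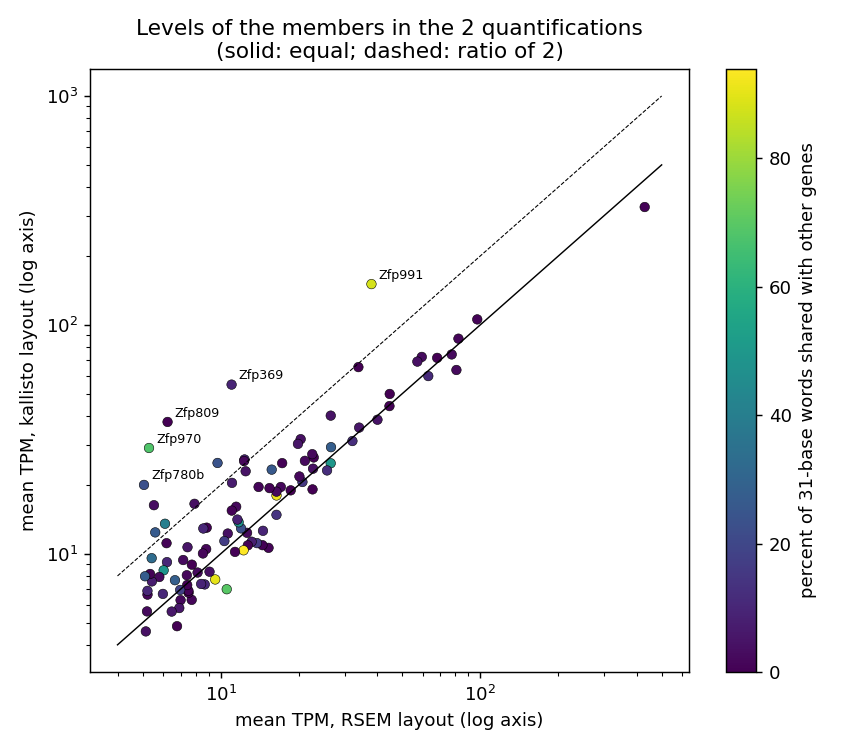
Mean TPM of the 104 members in the kallisto layout against the RSEM layout, both on log axes; colour is the share of 31-base words found in other genes. The 5 named genes, from Zfp809 (6.04) to Zfp780b (3.95), lie highest above the line of equality.

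The classes of transcript were the comparison that selection on the gene total did not use. A retained-intron transcript is an annotated model that keeps an intron. The median member had 65.1% of its TPM on protein-coding transcripts, beside 53.6% over the 6360 genes, and 24.0% on retained-intron transcripts, beside 30.7%. A retained-intron model was annotated for 63.5% of the members and 70.8% of the 6360 genes. Where annotated, such models held a median of 37.8 and 43.4% of the TPM. Of the 104 members, 66 had a retained-intron model and 64 could be tested. limma compared the summed TPM of each class in each library against equality, with the log2 ratio of retained-intron to coding TPM (pseudocount 0.1). Over 4311 genes tested, 24.3% were called with more retained-intron RNA and 25.6% with more coding RNA at a Benjamini-Hochberg adjusted p under 0.05. Of the 64 members 11 (17.2%) were called with more retained-intron RNA and 26 (40.6%) with more coding RNA. The median ratio was -0.57 over the members and -0.06 over the 4311 genes.

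Without replicate 3 there were 3 retained-intron and 6 coding calls, and without replicate 2 there were 7 and 18, each of them also called with all 3 libraries. Without replicate 1 there were 6 and 17, of which 4 and 17 were also called with all 3. The kallisto layout gave 19 and 22, of which 8 and 18 were shared. In it 13 of 63 members had a ratio of the opposite sign, and the coding calls of Zfp260 (1.67, limma adjusted p = 0.0274) and Zfp959 (0.70, limma adjusted p = 0.0293) became retained-intron calls. In all 3 leave-one-out fits the calls of Zfp945 and Zfp330 (retained intron) and of Zfp280c, Zfp219, Zfp407, Zfp236 and Zfp950 (coding) remained. Why replicate 3 moved the counts most was not tested. Of the 64 members, 64 could be tested without replicate 1, 54 without replicate 2 and 62 without replicate 3. The shares of all genes called in these settings are not given here. Whether the fall in calls is particular to the members was therefore not tested.

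Zfp945 had the largest retained-intron excess (ENSMUSG00000059142.16, chromosome 17, 22846697 to 22867134, - strand), with log2 ratios of 4.02, 2.72 and 3.56 and a mean of 3.43 ± 0.32 (SE, limma adjusted p = 0.00378), and 91.4% of its TPM lay on retained-intron models. All 3 libraries were positive. Zfp326, the RNA-binding member, had 1.94, 2.59 and 5.29 (mean 3.27, adjusted p = 0.0221), and its call was lost without replicate 1 (adjusted p = 0.0515). Zfp330 had 2.73, 2.21 and 2.50 (mean 2.48, limma adjusted p = 0.00357), and a retained-intron model of 457 bases held 17.7 of its 32.2 TPM. Zfp523 (1.91), Zfp653 (1.57), Zfp26 (1.51), Zfp638 (1.12), Zfp276 (1.04), Zfp865 (1.03), Zfp746 (0.98) and Zfp142 (0.78) were the other 8, each of them lost with at least 1 library left out. For Zfp638 expected counts gave -1.35, and for Zfp865 kallisto-layout TPM gave -0.13.

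On the coding side Zfp280c had -5.73, -6.82 and -4.99 (mean -5.85 ± 0.41 SE, limma adjusted p = 0.00292), with 95.1% of its TPM on coding models. Only 0.680% of its 8.83 TPM was on retained-intron models, which is under the pseudocount of 0.1 TPM. The size of its ratio therefore depends on the pseudocount, although its call held with pseudocounts of 1 and 0.01. Zfp219 had -4.01, Zfp407 -3.22, Zfp426 -3.10, Zfp236 -2.60, Zfp451 -2.27, Zfp950 -2.18, Zfp706 -1.97, Zfp62 -1.95 and Zfp106 -1.68. Every library of these 10 was negative. The call of Zfp219 was lost with a pseudocount of 0.01 (limma adjusted p = 0.0600). Zfp451, Zfp706, Zfp62 and Zfp106 were not called without replicate 3 (limma adjusted p from 0.0501 to 0.104), and Zfp426 and Zfp706 could not be tested without replicate 2. Zfp263 had -0.84, -1.15 and -1.61 (mean -1.20, limma adjusted p = 0.0182), and its call was lost without replicate 3 (adjusted p = 0.0998), with kallisto-layout TPM and with expected counts. Zfp445 (-1.23, adjusted p = 0.0168) was not called without replicate 1 or 3.

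**Figure D4:**
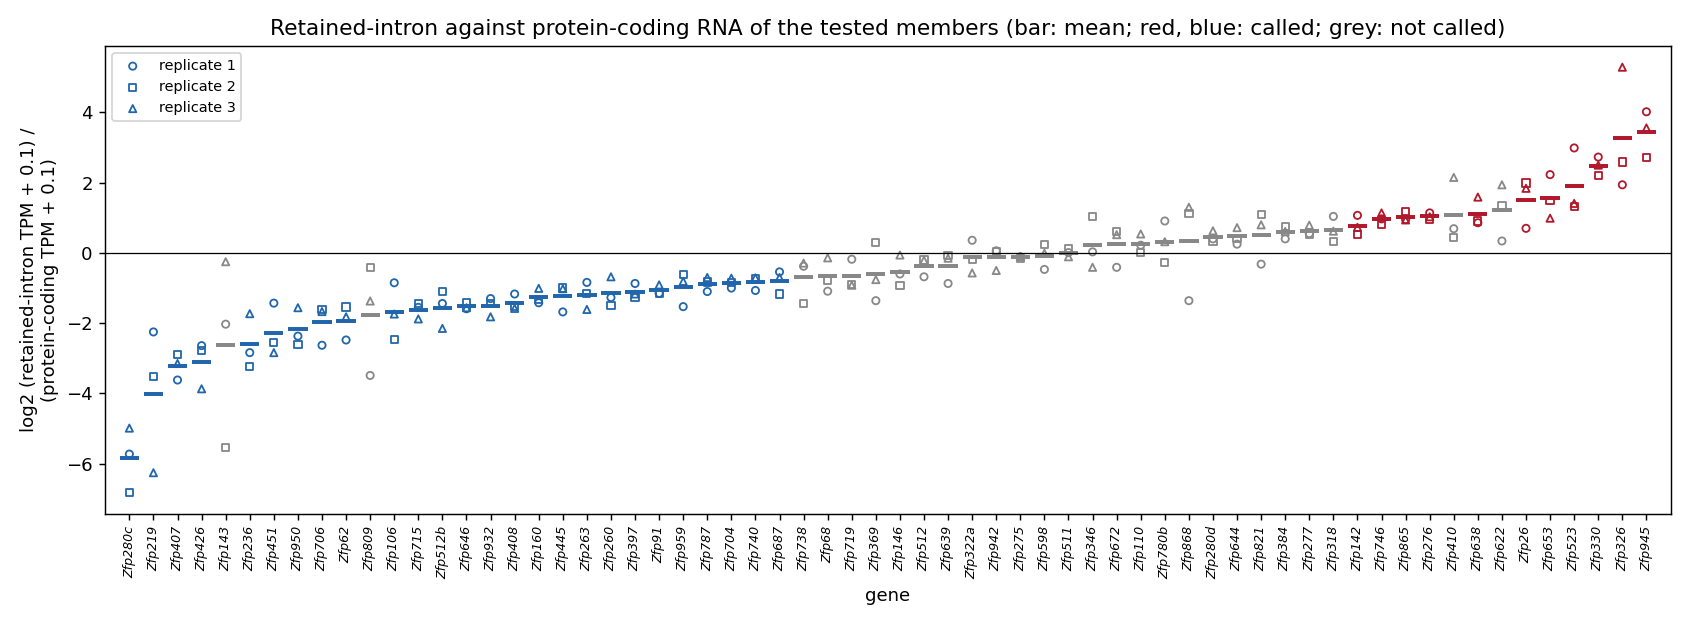
Log2 ratio of retained-intron to protein-coding TPM for the 64 tested members; symbols are the libraries and bars the mean, red for 11 calls with more retained-intron RNA, blue for 26 with more coding RNA and grey for 27 not called. Zfp945 (3.43) and Zfp280c (-5.85) lie at the ends, and the mean retained-intron TPM of Zfp280c was under the pseudocount of 0.1.

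Role lists were mixed. Of 9 tested genes for RNA, ribosomes and ubiquitin, 2 (Zfp326 and Zfp330) had more retained-intron RNA and 3 (Zfp106, Zfp91 and Zfp706) more coding RNA. Of 6 tested chromatin partners, 2 (Zfp638 and Zfp746) and 2 (Zfp451 and Zfp687) were called in these directions, and of 3 tested silencers Zfp445 and Zfp932 had more coding RNA. By pattern, 3 retained and 6 coding of 18 tested members with a KRAB-like pattern were called, and 8 and 20 of 46 without. Over the 4311 genes tested, 24.3% were called with more retained-intron RNA and 25.6% with more coding RNA. The difference between lists or patterns was not tested.

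No member was called for a slope on the amount of starting RNA. edgeR's quasi-likelihood slope on log2 of the starting amount called none of the 104 (percent called over 14001 genes: 1.56%), 1 had an unadjusted p under 0.05, beside 9.53% of all genes, and DESeq2 called 0, with 0 at an unadjusted p under 0.05. The gene with the lowest p was Zfp706, with a slope of -0.65 ± 0.29 (SE, edgeR adjusted p = 0.469). The median slope was -0.02 for the members and for all genes. Amount and library cannot be told apart.

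RefSeq promoters (GRCm38.p6, windows of 300 bases around the start) matched 90 of the 104 by symbol. Their median GC content was 55.7% with 16 CpG, beside 54.0% and 12 for the 232 other Zfp genes and 61.3% and 22 for 5116 of the genes of at least 5 TPM. The 250 bases before the start are shown for the 2 highest members, Zfp263 (chr16:3743849-3744098, +) and Zfp207 (chr11:80383029-80383278, +), chosen by level. Capitals mark matches, on either strand, to a GC box (GGGCGG), an ETS site (CCGGAAG) or a YY1 site (AAGATGGC).
Zfp263: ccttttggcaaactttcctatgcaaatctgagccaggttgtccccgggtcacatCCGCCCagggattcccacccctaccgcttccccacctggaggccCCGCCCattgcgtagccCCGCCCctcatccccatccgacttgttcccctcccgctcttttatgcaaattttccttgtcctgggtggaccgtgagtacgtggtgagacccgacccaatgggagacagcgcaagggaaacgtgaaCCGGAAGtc
Zfp207: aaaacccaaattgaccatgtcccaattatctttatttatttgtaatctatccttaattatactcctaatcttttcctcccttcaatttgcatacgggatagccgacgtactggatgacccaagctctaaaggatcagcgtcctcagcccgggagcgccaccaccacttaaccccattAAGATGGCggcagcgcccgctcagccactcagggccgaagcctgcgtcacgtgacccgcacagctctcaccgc
That of Zfp263 holds 3 GC boxes and 1 ETS match and that of Zfp207 1 YY1 match. GC boxes were in 56.7% of the members' promoters, beside 66.5% of the 5116 and 35.9% of all 27025. ETS matches were in 25.6, 22.0 and 9.12% and TATA boxes (TATAAA) in 4.44, 7.02 and 14.2%. The NF-kB consensus matched in 11.1, 10.3 and 8.18%, and the interferon-stimulated response element core in 0 of 90, beside 3.89 and 3.49%. YY1 matches were in 6.67, 5.53 and 2.88%, and NRF1 matches (GCGCATGCG) in 6.67, 4.20 and 1.81%, the members' share being 6 of 90 for each. Matches are letters in the window, not sites shown to be bound.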

How the data were processed

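Ribosome-depleted RNA of the chromatin fraction was measured in 3 libraries of 1 group. The authors deposited expected counts and TPM per gene and transcript in RSEM's layout, and estimated counts and TPM per transcript in kallisto's layout, both for mm10 with GENCODE M21 per the submitters' notes. The layouts are read from the file headers, which name no tool, so aligner, strand setting and versions are unknown here. Rows naming no gene (1.94, 0.269 and 0.386% of counts in replicates 1, 2 and 3) were left out. Levels were described by TPM. limma 3.58.1 was fitted to isoform ratios and edgeR 4.0.16 (TMM, filterByExpr) to expected counts rounded to whole numbers, and DESeq2 1.42.0 was an alternative (R 4.3.3, pandas and numpy in Python). Both tests were also run on simulated data in which all genes had the same spread, unlike the measured data. The outcome is not given here.

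Proteins were translated from M21 coding sequences, although RefSeq proteins had been planned. A finger match was a cysteine pair 2 to 4 residues apart, 12 residues, and a histidine pair 3 to 5 apart. The KRAB-like and SCAN-like patterns were adjusted after looking at the proteins. Named genes were the 15 highest, the 4 on either side of the minimum, the extremes of variation, isoform ratio, quantification ratio and fingers, role-list genes and the genes of the largest groups. Partner genes, overlapping genes, the 6 with most shared words, and Zfp959 and Zfp275, whose isoform ratios changed sign, were named after their values were seen. The members and lists were chosen with earlier results of these data known. Alternatives were other quantifications, minima, pseudocounts, filters and leaving out each library.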

Additional observations from a re-analysis of the deposited data

How the results depend on the processing

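No paired analysis was possible because there was 1 group. Under other minima (4 or 6 TPM, or 5 TPM in every library), posterior mean TPM, kallisto-layout TPM and leaving out each library, 81 to 142 Zfp genes were found against 104. The mean of the library medians of their TPM was 11.2, and it was 9.48 to 12.9 with each library left out and 1.55 without a minimum. The KRAB-like difference was -0.26, between -0.37 and -0.21 with each library left out, -1.40 without a minimum and 0.12 with kallisto-layout TPM. Isoform calls with more retained-intron RNA numbered 11, with 19 for kallisto-layout TPM and 3 to 7 with each library left out. Those with more coding RNA numbered 26, and 6 to 18 with each library left out. Shares of all genes called in these other settings are not given, so these counts describe the members alone. Among the 64 members tested, the isoform ratio had the opposite sign in 13 of 63 with kallisto-layout TPM, in 10 with expected counts and in 2 to 3 with each library left out. It was called in the opposite direction in 6 with kallisto-layout TPM (Zfp260 1.67, Zfp959 0.70, Zfp369 2.96, Zfp275 0.88, Zfp780b -1.12 and Zfp809 2.39), of which Zfp260 and Zfp959 had been called as coding. With expected counts this held for 5, of which Zfp638 had been called. Among the role-list genes and the genes named for their ratio, those that changed sign were Zfp142 (-0.03), Zfp638 (-1.35), Zfp318 (-3.22) and Zfp346 (-2.71) with expected counts, Zfp598 (0.10), Zfp644 (-0.40), Zfp809 and Zfp865 (-0.13) with kallisto-layout TPM, and Zfp598 with each library left out (-0.24 to 0.11). The cause was not tested. The slope test called 0 members in all 4 other settings run, and the median slope ranged from -0.23 to 0.18 with each library left out, where 2 libraries allow no test. Expected counts are not scaled by transcript length, so their ratios are not on the scale of TPM ratios.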
